A study of Mus musculus with 27 samples.

Results

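The Hox genes encode homeodomain transcription factors that sit in 4 clusters, Hoxa to Hoxd, and give cells along the body axis their position. Within a cluster the genes lie in the order in which they are switched on along the axis, from the anterior genes at one end to the posterior genes at the other, and genes of equal number in different clusters are paralogs. In the gut they are known for regional patterning of the endoderm-derived epithelium and of the muscle and connective tissue around it, and the group 13 genes are known for the hindgut, the rectum and the urogenital tract.

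The genes described here are those whose symbol is Hox, a cluster letter and a number, and 38 of them are reported of 35896 genes with deposited counts. Cluster A holds 10 of them on chromosome 6, cluster B 10 on chromosome 11, cluster C 9 on chromosome 15 and cluster D 9 on chromosome 2. By number, 7 are called anterior here (paralog groups 1 to 3), 15 central (4 to 8) and 16 posterior (9 to 13).

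RNA was measured in 1 cm pieces of whole distal and proximal colon from 14 adult mice of mixed background, so epithelium, muscle, stroma and immune cells were read together. Deficient mice carried Villin1-Cre, a recombinase made in intestinal epithelium, with both alleles of Foxa1 and Foxa2 flanked by loxP sites (Villin1-Cre; Foxa1lox/lox; Foxa2lox/lox). They gave 7 distal and 7 proximal libraries at 9 to 13 months of age, and 2 of these mice were labelled female. Control mice were labelled male, were 9 to 18 months old and gave 6 distal and 7 proximal libraries. Of the controls, 5 carried the loxP alleles without Cre (Foxa1lox/lox; Foxa2lox/lox), replicate 1 was Villin1-Cre; Foxa1lox/wt; Foxa2lox/wt, and replicate 6 was Villin1-Cre; Foxa1lox/lox; Foxa2lox/wt. Foxa1 and Foxa2 encode forkhead factors of the gut epithelium, and their floxed alleles were present in every mouse. Because the recombinase acts in epithelium, Hox RNA from the muscle and stroma of deficient mice came from cells that kept both genes.

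Libraries held 18472867 to 56744113 estimated counts. Foxa2 was at 0.398 to 2.23 TPM (a transcript abundance scaled for length and library total) in distal deficient and 9.74 to 19.9 TPM in distal control libraries, and at 1.75 to 3.27 TPM in proximal deficient and 3.96 to 15.3 TPM in proximal control libraries. Foxa1 was at 10.8 to 16.3 TPM (mean 12.9) in distal deficient and 7.77 to 31.1 TPM (mean 21.8) in distal control libraries, the lowest being control replicate 6, and at 11.3 to 20.1 TPM (mean 15.7) in proximal deficient and 21.4 to 34.6 TPM (mean 29.1) in proximal control libraries. Much of the RNA counted as Foxa1 thus remained in deficient colon. Sums per gene do not show whether it was intact or from which cells it came. The segment labels were checked with Atp12a, at 45.6 to 806 TPM in distal and 0.179 to 1.09 TPM in proximal libraries, and with Nts, whose ranges were 0.0731 to 5.03 TPM in distal and 3.43 to 84.7 TPM in proximal libraries. Mptx1, listed as a proximal gene, went the other way (953 TPM distal and 2 TPM proximal in deficient mice, 7587 TPM distal and 2.31 TPM proximal in controls, means). Deficient replicate 3 was labelled male but had Ddx3y, a Y-linked gene, at 0.244 TPM in distal and 0.00997 TPM in proximal colon, like the mice labelled female. The files' effective lengths fall short of transcript lengths by 249 bases throughout distal colon and by 214.56 to 246 bases in proximal colon. The fragment length assumed for the estimates thus differed between segments, and position along the colon and this setting cannot be told apart.

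Most of the Hox genes differed between distal and proximal colon. The genes called were all higher in distal colon in cluster A and all lower in cluster C. Clusters B and D held both directions. In deficient mice 10 of the 32 members tested were higher in distal colon and 17 were lower, against 22.7% of all tested genes higher and 22.3% lower (edgeR's quasi-likelihood test, mouse as a block, Benjamini-Hochberg adjusted p under 0.05, 7 mice). In control mice 9 of 30 tested members were higher and 16 lower, against 21.5% and 22.3% of all genes, in the 6 mice with both segments, since replicate 7 had a proximal library only. The median log2 fold change of distal over proximal was -1.51 over the members and -0.03 over all genes in deficient mice, and -1.19 and -0.05 in controls. A total of 24 members were called the same way in both genotypes, 9 higher and 15 lower, and 0 were called in opposite directions.

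By cluster, the cluster A genes called were all higher in distal colon, 8 of 10 in deficient mice and 7 of 10 in controls. Cluster B had 1 gene higher and 8 lower in either genotype. The cluster C genes called were all lower, 4 of 5 tested in deficient mice and 2 of 3 in controls. In cluster D 1 gene was higher in either genotype, while 5 were lower in deficient mice and 6 in controls. By position, 3 of 6 tested anterior members were lower in either genotype and 1 was higher in deficient mice and 0 in controls. Of the central members 3 were higher and 9 lower in deficient mice, and 3 higher and 8 lower in controls. Of the posterior members 6 were higher and 5 lower in either genotype, and no difference between these classes was tested.

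**Figure D1:**
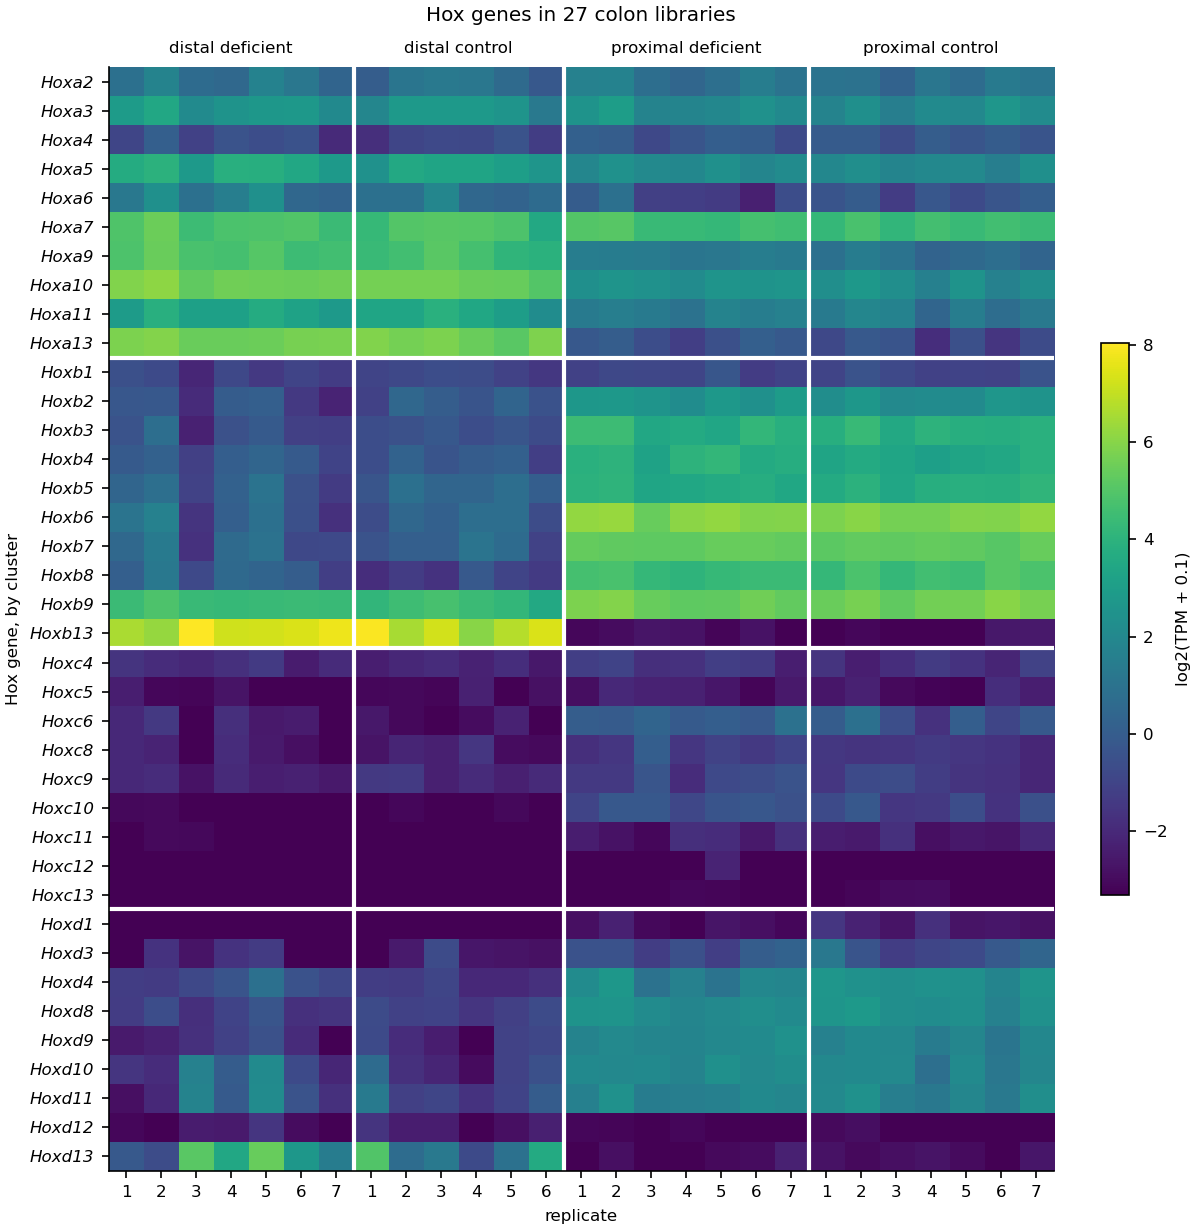
Each row is a Hox gene and each column a library, coloured by log2(TPM + 0.1), with white lines between groups and clusters. Cluster A posterior genes and Hoxb13 are bright in the 13 distal libraries, cluster B genes up to Hoxb9 in the 14 proximal ones, and cluster C is dark in both.

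**Figure D2:**
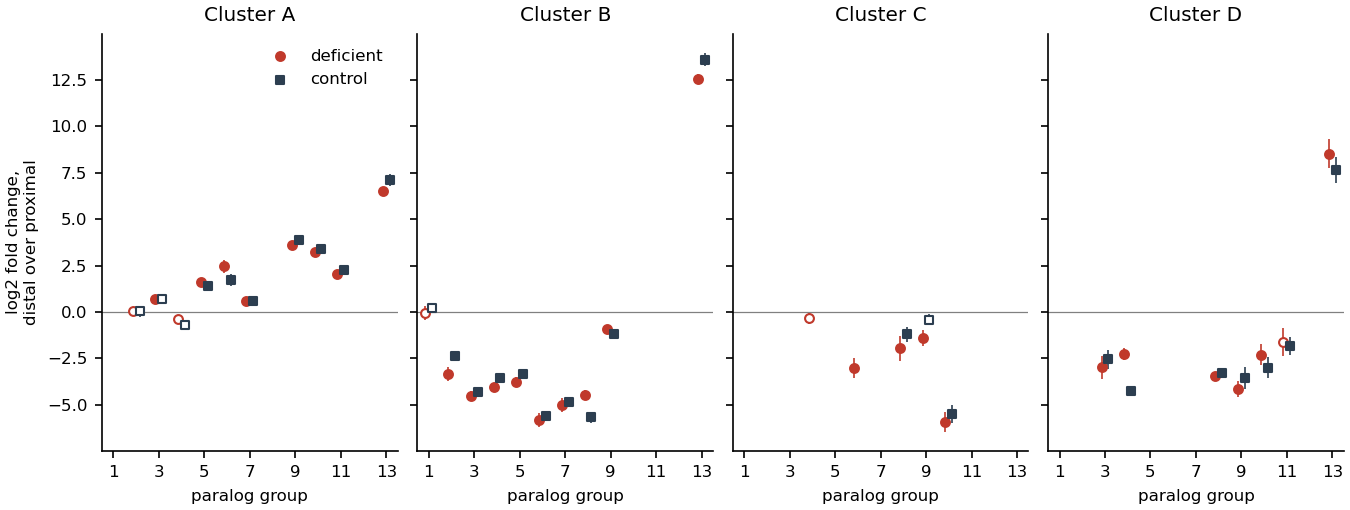
Points give the log2 fold change of distal over proximal colon against the paralog group, with bars for the standard error, in 7 deficient (circles) and 6 control mice (squares), filled where adjusted p was under 0.05. In cluster B the points lie below 0 from Hoxb2 to Hoxb9 and reach 12.53 and 13.59 at Hoxb13, and in cluster D they lie below 0 up to Hoxd11 and above it at Hoxd13.

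The group 13 genes Hoxb13, Hoxa13 and Hoxd13, which mark the most posterior part of the axis, were nearly restricted to distal libraries. Hoxb13 was the most abundant Hox gene of distal colon. It lay at 76.2 to 264 TPM with a median of 155 TPM in the 7 distal deficient libraries and at 65.5 to 254 TPM with a median of 132 TPM in the 6 distal control libraries. In proximal colon it lay at 0 to 0.0573 TPM in deficient and 0 to 0.0721 TPM in control libraries, so the segments did not overlap. Summed over mice, 56207 distal counts stood against 14 proximal counts in deficient mice, a 6343-fold ratio after scaling to library totals (95% exact counting interval 3780 to 11603), and 48114 against 5 in controls. Of those 5, control replicate 6 gave 4 and replicate 2 gave 1, so a ratio in controls would rest on 1 library and is not given. These intervals cover counting error only. The fitted log2 fold change was 12.53 (SE 0.28, adjusted p = 6.63e-09) in deficient and 13.59 (SE 0.37, adjusted p = 7.21e-08) in control mice, and with so few proximal counts these fitted values depend on the prior count.

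Hoxa13, needed in mice for the hindgut and the limb tips, lay at 44.1 to 61.3 TPM (median 52.2) in distal deficient and 35.5 to 59.1 TPM (median 52.8) in distal control libraries. The proximal libraries held 0.333 to 0.978 TPM in deficient mice and 0.18 to 0.802 TPM in controls. It was thus measured in every proximal library, at a level 90.6-fold below the distal one in deficient mice (81.2 to 101) and 132-fold below in controls (115 to 152), from summed counts. Its log2 fold changes were 6.53 (SE 0.16, adjusted p = 7.8e-09) and 7.11 (SE 0.33, adjusted p = 1.22e-06) in deficient and control mice. One transcript, Hoxa13-203, made up 95.2% of it in distal deficient and 96.5% in distal control colon.

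Hoxd13, a partner of Hoxa13 in hindgut and digit development, was far more uneven. It ranged from 0.53 to 41.9 TPM (median 6.44) over the distal deficient libraries and from 0.48 to 31.1 TPM (median 2.05) over the distal controls, while proximal libraries lay at 0 to 0.107 TPM in deficient and 0 to 0.0632 TPM in control mice. Every distal library was above every proximal one, and the distal libraries spread widely among themselves in either genotype. The log2 fold change was 8.53 (SE 0.80, adjusted p = 4.1e-05) in deficient and 7.65 (SE 0.72, adjusted p = 6.6e-05) in control mice. Hoxc13, the remaining group 13 gene, had 0 counts over the 13 distal libraries, which allows up to 0.00727 CPM (counts scaled to library total), and 8 counts over the 14 proximal ones. Group 13 genes made up 55.5% ± 12.1 of all Hox TPM in distal deficient and 55.3% ± 13.3 in distal control libraries (SD, n = 7 and 6), and 0.26% ± 0.0684 in proximal deficient and 0.197% ± 0.0768 in proximal control libraries (SD, n = 7 each).

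The bases before the start sites of Hoxd13 and Hoxa13, both high in distal colon, are given here as RefSeq records them (GRCm38.p6, 250 bases, 5′ to 3′ on the gene's strand), beside Hoxd11, which moved with Hoxd13 between distal libraries, Hoxb8, which was high in proximal colon, and Hoxd4, the member that differed between genotypes. Capitals mark TTTATG or, on the other strand, CATAAA, a short core of the sites bound by the caudal factors Cdx1 and Cdx2. Hoxd11 has another recorded start site, which held no such letters.
Hoxd13, chr2:74667975-74668224, plus strand: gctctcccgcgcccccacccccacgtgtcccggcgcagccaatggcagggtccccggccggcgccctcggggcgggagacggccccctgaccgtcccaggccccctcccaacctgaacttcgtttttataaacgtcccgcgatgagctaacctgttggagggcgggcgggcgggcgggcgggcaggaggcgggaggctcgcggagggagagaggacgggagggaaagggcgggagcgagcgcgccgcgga
Hoxa13, chr6:52260881-52261130, minus strand: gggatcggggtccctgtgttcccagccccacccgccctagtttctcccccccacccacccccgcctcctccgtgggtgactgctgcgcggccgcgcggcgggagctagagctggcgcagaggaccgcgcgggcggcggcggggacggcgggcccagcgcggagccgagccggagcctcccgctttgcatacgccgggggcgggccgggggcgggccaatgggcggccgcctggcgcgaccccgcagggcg
Hoxd11, chr2:74679308-74679557, plus strand: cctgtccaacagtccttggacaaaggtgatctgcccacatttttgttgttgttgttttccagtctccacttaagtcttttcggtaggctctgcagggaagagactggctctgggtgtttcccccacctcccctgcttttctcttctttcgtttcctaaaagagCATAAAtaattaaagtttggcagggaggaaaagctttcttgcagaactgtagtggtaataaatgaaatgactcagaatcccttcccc
Hoxb8, chr11:96281655-96281904, plus strand: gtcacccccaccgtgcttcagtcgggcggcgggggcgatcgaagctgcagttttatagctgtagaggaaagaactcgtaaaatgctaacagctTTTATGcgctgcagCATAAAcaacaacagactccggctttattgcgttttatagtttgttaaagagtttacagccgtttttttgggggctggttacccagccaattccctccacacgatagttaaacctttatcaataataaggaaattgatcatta
Hoxd4, chr2:74721728-74721977, plus strand: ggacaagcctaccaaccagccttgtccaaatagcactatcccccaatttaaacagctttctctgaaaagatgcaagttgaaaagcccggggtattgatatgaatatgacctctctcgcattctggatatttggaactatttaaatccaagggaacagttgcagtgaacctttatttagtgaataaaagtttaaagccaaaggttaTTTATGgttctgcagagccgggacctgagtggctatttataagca

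RefSeq promoters were at hand for 22 members, with 24 start sites. The caudal core was in 5 of the 24, or 20.8%, at Hoxd11, Hoxd3, Hoxd4, Hoxa7 and Hoxb8, against 10.8% of all 32851 promoters. The Hoxb8 stretch held it on both strands, and the Hoxd13 and Hoxa13 stretches, with GC contents of 74.4% and 80.0%, did not hold it. The forkhead core TGTTTAC, or GTAAACA on the other strand, the letters that Foxa proteins bind, was in 0 of the 24 and in 3.17% of all promoters. The motifs share no stretch here, and a match or its absence in this window says nothing of binding.

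The posterior cluster A genes Hoxa9, Hoxa10 and Hoxa11, known in mice for the uterus, the limb and blood progenitors, were also higher in distal colon. Hoxa10 lay at 38.7 to 69 TPM (median 47.3) in distal deficient and 31.8 to 50.3 TPM (median 46.6) in distal control libraries, and at 4.44 to 6.05 TPM (median 5.71) in proximal deficient and 3.03 to 6.49 TPM (median 4.78) in proximal control libraries. The segments stood clear of each other, with log2 fold changes of 3.23 (SE 0.16, adjusted p = 7.32e-07) in deficient and 3.37 (SE 0.15, adjusted p = 9.78e-07) in control mice. Hoxa9 lay at 21.9 to 43.3 TPM (median 27.1) in distal deficient and 15.1 to 34.8 TPM (median 22.3) in distal control colon. Its proximal ranges were 2.02 to 2.71 TPM (median 2.58) in deficient and 1.13 to 2.63 TPM (median 1.61) in control mice. Its log2 fold changes were 3.60 (SE 0.14) and 3.88 (SE 0.21) in deficient and control mice, and those of Hoxa11 were 2.05 (SE 0.14) and 2.26 (SE 0.21), all with an adjusted p under the threshold.

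Most central cluster A genes were higher in distal colon too. Hoxa5, known in mice for the lung and for gut mesenchyme, had log2 fold changes of 1.60 in deficient and 1.41 in control mice, and Hoxa6 of 2.47 and 1.70. Hoxa7 was the only member among the 5 highest of all 4 groups. It lay at 21.1 to 45.5 TPM in distal deficient and 11.5 to 34.2 TPM in distal control libraries, and at 18.9 to 33.6 TPM in proximal deficient and 17.9 to 27.2 TPM in proximal control libraries, so the segments overlapped. Its log2 fold changes were 0.57 (adjusted p = 0.00101) in deficient and 0.59 (adjusted p = 0.0158) in control mice. On the log2(TPM + 0.1) scale they were 0.24 and 0.17, no longer past the threshold, while the median over all genes moved to -0.21 and -0.29 on that scale. The call in controls was also lost without control replicate 5 (log2 fold change 0.50, adjusted p = 0.0524) and with transcript length as an offset (0.43, adjusted p = 0.0748).

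At the anterior end of cluster A, Hoxa3 was higher in deficient mice (log2 fold change 0.70, adjusted p = 0.00101) and did not pass in controls (0.68, adjusted p = 0.0579), where it passed without control replicate 6 (0.96, adjusted p = 0.00144). Hoxa2, at 0.781 to 3.29 TPM in distal and 1.09 to 3.14 TPM in proximal libraries, and Hoxa4, at 0.155 to 0.993 TPM in distal and 0.455 to 1.03 TPM in proximal libraries, passed in neither genotype. Hoxa4 passed in controls without control replicate 5 (-0.90, adjusted p = 0.0377). Hoxa3, Hoxa4, Hoxa5 and Hoxa6 overlap each other or a joint transcript model on one strand and antisense genes on the other, so their reads could be split between them.

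Cluster B ran the other way up to Hoxb9. Hoxb6 was the most abundant Hox gene of proximal colon. It lay at 0.202 to 3.13 TPM (median 0.996) in distal deficient and 0.521 to 1.61 TPM (median 1.15) in distal control libraries, against 41.7 to 77.8 TPM (median 67.9) in proximal deficient and 51 to 73.8 TPM (median 58.6) in proximal control libraries. The log2 fold changes were -5.83 (SE 0.37, adjusted p = 3.82e-06) in deficient and -5.58 (SE 0.26, adjusted p = 1.24e-06) in control mice. The antisense gene Hoxb5os overlaps Hoxb5 and Hoxb6, and Hoxb3os overlaps Hoxb2 and Hoxb3, so reads could be split between them. In all clusters, 13 of 38 members overlap a gene on the other strand and 15 a gene on the same strand.

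Hoxb7, the neighbour of Hoxb6, lay at 0.205 to 2.38 TPM (median 1.35) in distal deficient and 0.366 to 1.95 TPM (median 0.982) in distal control libraries. Its proximal level was the most even of the abundant members, at 37.3 to 42.2 TPM (median 40.3) in deficient and 33.7 to 42.3 TPM (median 38.3) in control mice. The log2 fold changes were -5.00 (SE 0.37) and -4.87 (SE 0.24) in deficient and control mice. Hoxb8, known in mice for blood progenitors and the spinal cord, lay at 0.334 to 2.22 TPM (median 0.981) in distal deficient and 0.18 to 0.816 TPM (median 0.299) in distal control libraries. In proximal colon it lay at 16.9 to 27.2 TPM (median 21.1) in deficient and 18.7 to 34.5 TPM (median 24.1) in control mice. Its log2 fold changes were -4.47 (SE 0.26, adjusted p = 2.42e-06) and -5.68 (SE 0.31, adjusted p = 2.85e-06) in deficient and control mice. These 3 genes had no library of either segment inside the range of the other.

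The more anterior genes of the cluster followed the same direction. Hoxb3, a hindbrain and branchial arch gene, lay at 0.104 to 1.65 TPM (median 0.604) in distal deficient and 0.513 to 0.767 TPM (median 0.572) in distal control libraries, and at 10.6 to 22.1 TPM (median 14.5) in proximal deficient and 11.4 to 20 TPM (median 14) in proximal control libraries. Hoxb4, known for blood stem cells, lay at 0.343 to 1.21 TPM (median 0.835) in distal deficient and 0.329 to 1.09 TPM (median 0.777) in distal control libraries, and at 9.17 to 18.2 TPM (median 14.6) in proximal deficient and 8.45 to 14.6 TPM (median 10.1) in proximal control libraries. Hoxb5, known in the enteric nervous system, lay at 0.295 to 1.94 TPM (median 1.06) in distal deficient and 0.688 to 1.76 TPM (median 1.22) in distal control libraries, and at 10.1 to 16.9 TPM (median 12.3) in proximal deficient and 10.6 to 17.1 TPM (median 13.9) in proximal control libraries. All 3 were below every proximal library in every distal one, with log2 fold changes of -4.53 and -4.33 for Hoxb3, -4.02 and -3.54 for Hoxb4 and -3.76 and -3.37 for Hoxb5 in deficient and control mice. Hoxb2 had -3.34 and -2.36. Hoxb1, the most anterior gene of the cluster, lay at 0.134 to 0.582 TPM in distal and 0.309 to 0.712 TPM in proximal libraries and passed in neither genotype.

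Hoxb9 closed the row with a smaller difference. It lay at 19.5 to 29.5 TPM (median 20.9) in distal deficient and 11.4 to 26.3 TPM (median 20.1) in distal control libraries, and at 37.8 to 60.6 TPM (median 41.9) in proximal deficient and 38.9 to 65.5 TPM (median 49.8) in proximal control libraries. The log2 fold changes were -0.93 (SE 0.07, adjusted p = 1.62e-05) in deficient and -1.18 (SE 0.16, adjusted p = 0.000432) in control mice. Its transcripts did not share the drop in equal parts. Hoxb9-201 averaged 3.57 ± 1.52 TPM in distal deficient and 2.8 ± 1.55 TPM in distal control colon, against 24.2 ± 6.73 and 28.4 ± 4.32 TPM in proximal deficient and control colon. Hoxb9-202 averaged 18.4 ± 2.14 and 17 ± 4 TPM in distal deficient and control colon, against 21.7 ± 3.27 and 21.9 ± 5.16 TPM in proximal deficient and control colon (SD, n = 6 for distal controls, 7 for the others, no test). The split between transcripts is an estimate and could shift with the fragment-length setting named above.

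On chromosome 11 the change of direction fell in the largest gap of the cluster. Hoxb9 and Hoxb13 are next to each other in order and 74 kb apart, while neighbours from Hoxb9 to Hoxb1 lie 1.31 to 12.1 kb apart. In cluster D the direction changed over a much shorter stretch, since Hoxd11, Hoxd12 and Hoxd13 lie within gaps of 1.85 and 3.41 kb. No cluster A gene was called lower.

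In cluster D the members other than Hoxd13 that were called were lower in distal colon. Hoxd8 lay at 0.192 to 0.688 TPM (median 0.308) in distal deficient and 0.241 to 0.505 TPM (median 0.377) in distal control libraries, and at 3.52 to 5.74 TPM (median 4.4) in proximal deficient and 3.12 to 6.97 TPM (median 5.03) in proximal control libraries. Its log2 fold changes were -3.47 (SE 0.26) and -3.30 (SE 0.26) in deficient and control mice. Those of Hoxd9 were -4.17 and -3.56, of Hoxd3 -2.99 and -2.55, of Hoxd10 -2.31 and -3.01, and of Hoxd11 -1.63 (adjusted p = 0.101, not called) and -1.83 (adjusted p = 0.0133). Hoxd11 passed in deficient mice without deficient replicate 3 (-2.16, adjusted p = 0.0476) or deficient replicate 5 (-2.12, adjusted p = 0.0456). In these libraries distal Hoxd11, at 3.26 and 4.32 TPM, lay inside the proximal range of 2.62 to 5.27 TPM in deficient mice. Hoxd1 had 0 counts over 13 distal and 63 counts over 14 proximal libraries, and Hoxd12 had 61 distal and 8 proximal counts, too few for a test.

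Cluster C was low throughout, at 0.521 ± 0.271 TPM summed over its 9 genes in distal deficient and 0.478 ± 0.138 TPM in distal control colon, against 2.97 ± 0.695 TPM in proximal deficient and 2.16 ± 0.693 TPM in proximal control colon (SD). Hoxc6, its most abundant gene in proximal colon, lay at 0 to 0.275 TPM (median 0.0822) in distal deficient and 0 to 0.114 TPM (median 0.0228) in distal control libraries, and at 0.806 to 1.77 TPM (median 0.926) in proximal deficient and 0.209 to 1.72 TPM (median 0.796) in proximal control libraries. Hoxc6 was lower in deficient mice (log2 fold change -3.0, SE 0.54, adjusted p = 0.00167) and was not tested in controls, where it missed the count filter. Hoxc10, known in the hind limb and lumbar spinal cord, had 2 distal and 260 proximal counts in deficient mice, an 82.3-fold ratio of proximal to distal (22.5 to 683), and 2 and 158 counts in controls, a 55.3-fold ratio (15.1 to 461). Hoxc8 (-1.95 and -1.20 in deficient and control mice) lay close to the threshold. When deficient replicate 3, 5, 6 or 7 was left out it lost its call in deficient mice (adjusted p from 0.0651 to 0.0844), and when control replicate 1, 3, 5 or 6 was left out it lost its call in controls (adjusted p from 0.0727 to 0.091). Hoxc9 was lower in deficient mice alone (-1.40, adjusted p = 0.0293, against -0.42 with adjusted p = 0.281 in controls), a difference between genotypes that did not pass its own test (adjusted p = 0.541), and its call was lost when deficient replicate 3, 5 or 7 was left out (adjusted p from 0.066 to 0.0764). Hoxc4 was not called, and Hoxc5, Hoxc11, Hoxc12 and Hoxc13 held too few counts for any test, as did Hoxd1 and Hoxd12. Hoxc5 overlaps Hoxc6, Hoxc8, Hoxc9 and Hoxc10 on the same strand, so reads could be split between them.

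Without overlap between the libraries of the segments, 7 of 32 tested members were higher and 15 lower in distal colon of deficient mice, against 6.01% and 11.7% of all tested genes. In controls 8 of 30 were higher and 13 lower, against 5.6% and 14.9%. In shares of all Hox TPM, cluster A made up 49% ± 12.4 in distal deficient and 50.6% ± 11.2 in distal control libraries, against 16.5% ± 1.29 in proximal deficient and 15.1% ± 0.987 in proximal control libraries (SD). Cluster B made up 46.7% ± 10.5 and 46.6% ± 8.75 in distal deficient and control libraries, through Hoxb13 and Hoxb9, and 75.5% ± 1.79 and 76.6% ± 2.1 in proximal ones. The shares spread far more between distal than between proximal libraries.

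Cell types other than epithelium moved with the segments. The 8 smooth muscle markers summed to 362 to 1747 TPM in distal deficient and 826 to 2606 TPM in distal control libraries, and to 1879 to 3143 TPM in proximal deficient and 1292 to 2816 TPM in proximal control libraries, with 8 of 8 lower in distal colon of deficient mice and 5 of 8 of controls. Of 8 enteric neuron and glia markers 6 were lower in deficient mice and 2 in controls, and of 8 epithelial markers 2 and 6 were higher. Of 6 fibroblast markers 3 were lower in deficient mice and 1 in controls, and of 5 endothelial markers 2 and 1, where 22.3% of all genes were lower in either genotype. The median log2 fold change of the smooth muscle list was -1.24 in deficient and -0.54 in control mice. Small intestine markers were lower too, 5 of 5 tested in deficient and 3 of 3 in control mice, with sums of 10.9 to 286 TPM in distal deficient and 28 to 476 TPM in distal control libraries, against 727 to 2249 TPM in proximal deficient and 375 to 785 TPM in proximal control libraries. The part of these lists in the Hox differences was not tested. Fewer cells of a type and less RNA per cell cannot be told apart in such pieces.

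The relations with muscle were chosen after seeing the data, so their p-values are not an independent test. Among proximal libraries some Hox genes followed the summed TPM of the smooth muscle markers. Over all 14, log2(TPM + 0.1) of Hoxd9 went with the smooth muscle sum at r = 0.87 (rho = 0.81, permutation p = 0.0001 and 0.00081, adjusted over 29 members p = 0.00145 and 0.0178), and at 0.80 within 7 deficient and 0.91 within 7 control libraries. Without the 2 libraries of farthest muscle sum, r was 0.75 (permutation p = 0.00428). Of 29 members at a mean of 0.3 TPM or more, 9 passed, all with positive r: Hoxa5, Hoxa10, Hoxa11, Hoxa13, Hoxc6, Hoxc10, Hoxd9, Hoxd10 and Hoxd11. By rho, Hoxa10, Hoxa11 and Hoxd9 passed. Without the 2 farthest libraries, control replicates 4 and 6, r stayed at 0.63 for Hoxa11 (permutation p = 0.0284) and 0.62 for Hoxa5 (permutation p = 0.0357), was 0.57 for Hoxa10 (permutation p = 0.0558), and fell to 0.26 to 0.48 for Hoxa13, Hoxc6, Hoxc10, Hoxd10 and Hoxd11, so for these the relation rests on those libraries. Abundant cluster B genes did not pass, with r of 0.44 for Hoxb6, 0.36 for Hoxb7, -0.25 for Hoxb8 and -0.37 for Hoxb9. In distal libraries 2 of 25 passed by r, Hoxb2 (r = 0.92, adjusted p = 0.00025) and Hoxb5 (r = 0.87, adjusted p = 0.00325), at 0.77 and 0.63 without the 2 farthest. By rho, Hoxb2 (0.95), Hoxb5 (0.76) and Hoxb3 (0.75, adjusted permutation p = 0.0382) passed, and r of Hoxb3 was 0.36 without the 2 farthest. Summed TPM and members share the library and its total.

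**Figure D3:**
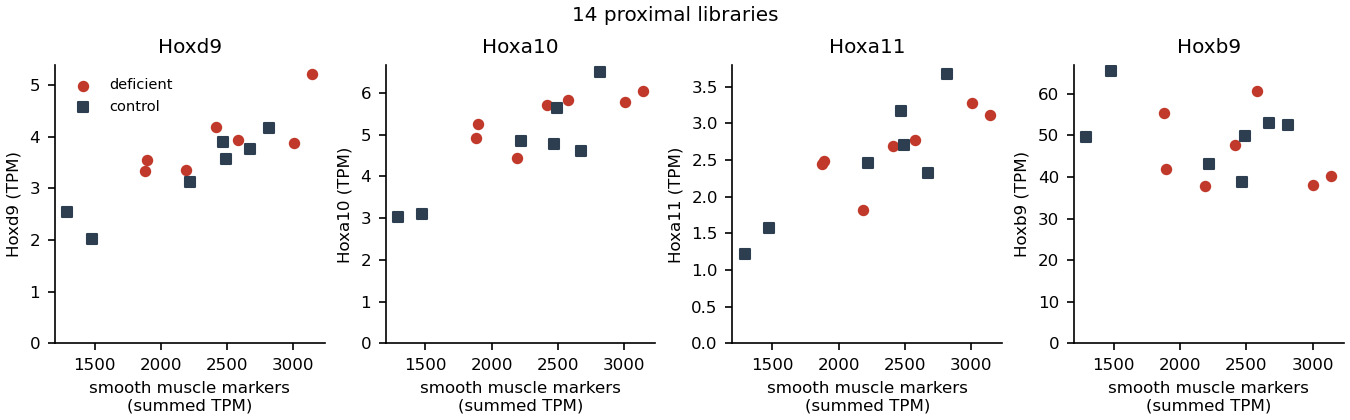
Each point is a proximal library, with the summed TPM of 8 smooth muscle markers on the x axis and the TPM of 1 Hox gene on the y axis, in 7 deficient (circles) and 7 control mice (squares). Hoxd9, Hoxa10 and Hoxa11 climb with the muscle sum, lowest in control replicates 4 and 6, and Hoxb9 (r = -0.37) does not.

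The distal libraries differed among themselves in one set of genes at the posterior end of cluster D. Hoxd13 was at 41.9, 34.9 and 11.3 TPM in deficient replicates 5, 3 and 4, at 6.44 and 2.67 TPM in replicates 6 and 7 and at 0.793 and 0.53 TPM in replicates 1 and 2. In controls it was at 31.1 and 12.4 TPM in replicates 1 and 6, the control mice that carried Cre, and at 0.48 to 2.32 TPM in the other 4. Distal libraries of mice with Cre thus ranged from 0.53 to 41.9 TPM, and the 4 without Cre lay at 0.48 to 2.32 TPM, so the ranges overlapped. The part of Cre or genotype in this spread was not tested. Hoxd11 was at 4.32, 3.26 and 0.843 TPM in deficient replicates 5, 3 and 4 and at 2.41 and 0.887 TPM in control replicates 1 and 6, and the other 8 distal libraries lay at 0.0388 to 0.658 TPM.

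Over the 13 distal libraries, Hoxd13 went with Hoxd11 (r = 0.94, rho = 0.91, permutation p = 1e-05, the smallest the resamples allow, adjusted p = 0.000145), Hoxd10 (r = 0.92, rho = 0.86, adjusted p = 0.000145) and Hoxb13 (r = 0.83, rho = 0.84, adjusted p = 0.00428) on the log2(TPM + 0.1) scale. The p-values are adjusted over 29 relations, and the pattern was noticed in these libraries before it was tested in them. Within 7 deficient libraries r was 0.97, 0.92 and 0.73 for these genes, and within 6 controls 0.97, 0.93 and 0.94. Without the 2 libraries farthest from the median they were 0.91, 0.88 and 0.86 (permutation p = 0.00012, 0.00036 and 0.00093), and without deficient replicate 3, 0.93, 0.90 and 0.79. Hoxa13 did not go with Hoxd13 over all 13 libraries (r = -0.09), while r was -0.93 within deficient and 0.65 within control libraries.

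Cdx2, the caudal factor that sets intestinal identity and acts on Hox genes in mouse embryos, went the opposite way, with r = -0.89 against Hoxd13 (rho = -0.88, permutation p = 0.00017 and 9e-05, adjusted p = 0.00164 and 0.0013), -0.87 within deficient and -0.91 within control libraries. It was at 26.9 to 77.6 TPM in deficient replicates 3 to 7, and at 163 and 179 TPM in deficient replicates 1 and 2. In control replicates 1 and 6 it was at 48.5 and 37.1 TPM, and in the other 4 at 132 to 165 TPM. Proximal libraries held 197 to 267 TPM. Cdx2 was lower in distal than in proximal colon (log2 fold change -1.42, adjusted p = 0.00502 in deficient and -1.01, adjusted p = 0.0129 in control mice). Cdx1, its paralog, did not go with Hoxd13 (r = -0.25, adjusted p = 0.537).

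Of the cell type lists set against Hoxd13, none passed: r was -0.13 for smooth muscle, -0.39 for epithelium and 0.13 for the summed squamous markers, listed for the anal canal. The 6 squamous markers summed to 49 to 153 TPM in distal deficient and 37.6 to 107 TPM in distal control libraries, and to 31.9 to 75.3 TPM in proximal deficient and 33.7 to 216 TPM in proximal control libraries, most of it Sprr1a. Of the 3 tested, 3 were higher in distal colon of deficient mice and 1 in controls, Krt13 by 6.02 and 4.48 on the log2 scale. In distal libraries Krt13 lay at 1.16 to 4.48 TPM in deficient and 0.534 to 3.62 TPM in control mice, and Krt14 at 1.24 to 5.61 and 0.576 to 3.46 TPM. Krt5, Trp63 and Krt6a were at or near 0, with at most 0.0375, 0.029 and 0.0272 TPM in any distal library. The squamous sum mostly follows Sprr1a, which averaged 89.9 TPM in distal and 51.9 TPM in proximal deficient colon. Its r thus cannot decide on squamous epithelium of the anal canal. The part of squamous epithelium in the distal Hox levels was not tested. Among other members Hoxb1 went against Hoxd13 (r = -0.70, rho = -0.73, adjusted p = 0.0318 and 0.0259, r = -0.53 without the 2 farthest). The remaining 20 did not pass by r, Hoxd4 among them (r = 0.58, adjusted p = 0.122), while Hoxa3 and Hoxa7 passed by rho (-0.75 and -0.73, each with adjusted p = 0.0259).

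**Figure D4:**
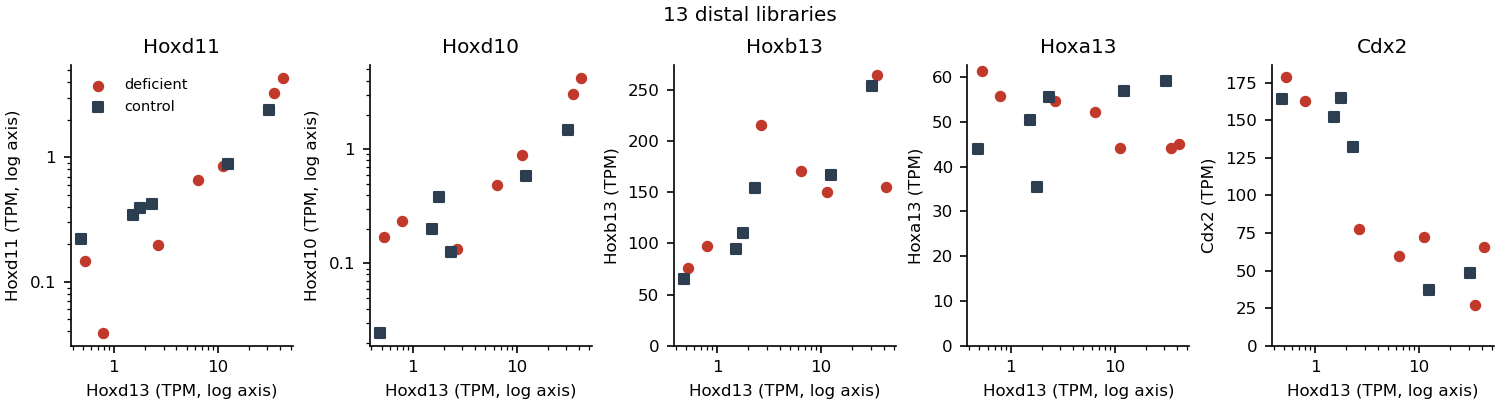
Each point is a distal library, with Hoxd13 on a log x axis and a second gene on the y axis (log for Hoxd11 and Hoxd10), in 7 deficient (circles) and 6 control mice (squares). Hoxd11, Hoxd10 and Hoxb13 climb with Hoxd13 in both genotypes (r = 0.94, 0.92 and 0.83), and Cdx2 falls (r = -0.89). Hoxa13 has r = -0.09 over all 13, but -0.93 in deficient and 0.65 in control libraries.

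Between deficient and control mice most Hox genes were not called. In distal colon 1 of 25 tested members was higher and 0 were lower, against 2.71% of all genes higher and 3.38% lower, with 2 members at an unadjusted p under 0.05 (edgeR's quasi-likelihood test, 7 deficient and 6 control libraries). In proximal colon 0 of 30 were higher and 1 was lower, against 5.53% and 6.17%, with 5 at an unadjusted p under 0.05. DESeq2 gave the same counts. The test of whether the distal to proximal difference depended on genotype called 1 of 32 members higher and 0 lower, against 0.432% and 0.58% of all genes. The median log2 fold change of the members was 0.07 in distal and 0.12 in proximal colon, and 0.01 over all genes in either. For Hoxb13 the distal log2 fold change was 0.09 (SE 0.35), for Hoxa13 -0.09 (SE 0.14) and for Hoxd13 0.54 (SE 1.06), the last with a standard error that leaves a large difference possible.

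All 3 calls were of one gene, Hoxd4, a retinoic acid-responsive gene of the hindbrain and cervical vertebrae, at chr2:74711929-74729160. It lay at 0.293 to 1.73 TPM (median 0.456) in distal deficient and 0.148 to 0.425 TPM (median 0.244) in distal control libraries, and at 1.82 to 6.32 TPM (median 3.53) in proximal deficient and 3.37 to 6.2 TPM (median 5.34) in proximal control libraries. The genotypes overlapped in both segments, and every distal library lay below every proximal one. Hoxd4 was higher in distal deficient colon (log2 fold change 1.44, SE 0.36, adjusted p = 0.0272) and lower in proximal deficient colon (-0.63, SE 0.19, adjusted p = 0.0478). Its distal to proximal log2 fold change was -2.26 (SE 0.34) in deficient and -4.24 (SE 0.20) in control mice, a difference of 1.99 (SE 0.43, adjusted p = 0.0398).

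These calls lay near the threshold, and distal Hoxd4 counts were few, at 12 to 55 per deficient and 6 to 22 per control library. When deficient replicate 4 or 6 or control replicate 1, 4, 5 or 6 was left out, the distal call was lost (adjusted p from 0.0531 to 0.0599). The proximal call stood when deficient replicate 2 or control replicate 6 was left out and was lost when any of the other 12 mice was (adjusted p from 0.0568 to 0.0946). The difference between segments lost its call when deficient replicate 3, 4, 6 or 7 or any 1 of the 6 control mice with both segments was left out (adjusted p from 0.0571 to 0.102). With transcript length as an offset the adjusted p was 0.0968 in distal colon, 0.0818 in proximal colon and 0.15 for the difference, with the same directions. Small intestine markers moved with the proximal comparison, 5 of 5 tested being higher in deficient mice, Sis at 12.3 to 45 TPM in deficient and 1.95 to 14.2 TPM in control libraries, and their part in the Hoxd4 result was not tested. Hoxd4 overlaps Hoxd3 and a joint transcript model on its strand and Hoxd3os1 on the other, and the library kit did not mark strand, so reads of these genes cannot be told apart.

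Other members came near without passing. Hoxb8 was at 1.06 ± 0.625 TPM in distal deficient and 0.369 ± 0.232 TPM in distal control colon (SD, n = 7 and 6, log2 fold change 0.99, adjusted p = 0.254). In proximal colon Hoxb8 was at 21.4 ± 3.69 and 24.9 ± 5.74 TPM (log2 fold change -0.23, adjusted p = 0.203), and the difference between the segments had adjusted p = 0.241. Hoxa9 in proximal colon was at 2.46 ± 0.266 TPM in deficient and 1.65 ± 0.52 TPM in control mice (log2 fold change 0.49, adjusted p = 0.101), and passed on the log2(TPM + 0.1) scale (0.59, adjusted p = 0.0436) and in the authors' deposited log2 CPM (0.61, adjusted p = 0.0345). Hoxb4, at 14.3 ± 3.05 and 10.9 ± 2.02 TPM in proximal deficient and control colon (0.40, adjusted p = 0.103), passed without deficient replicate 3 (0.47, adjusted p = 0.036).

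**Figure D5:**
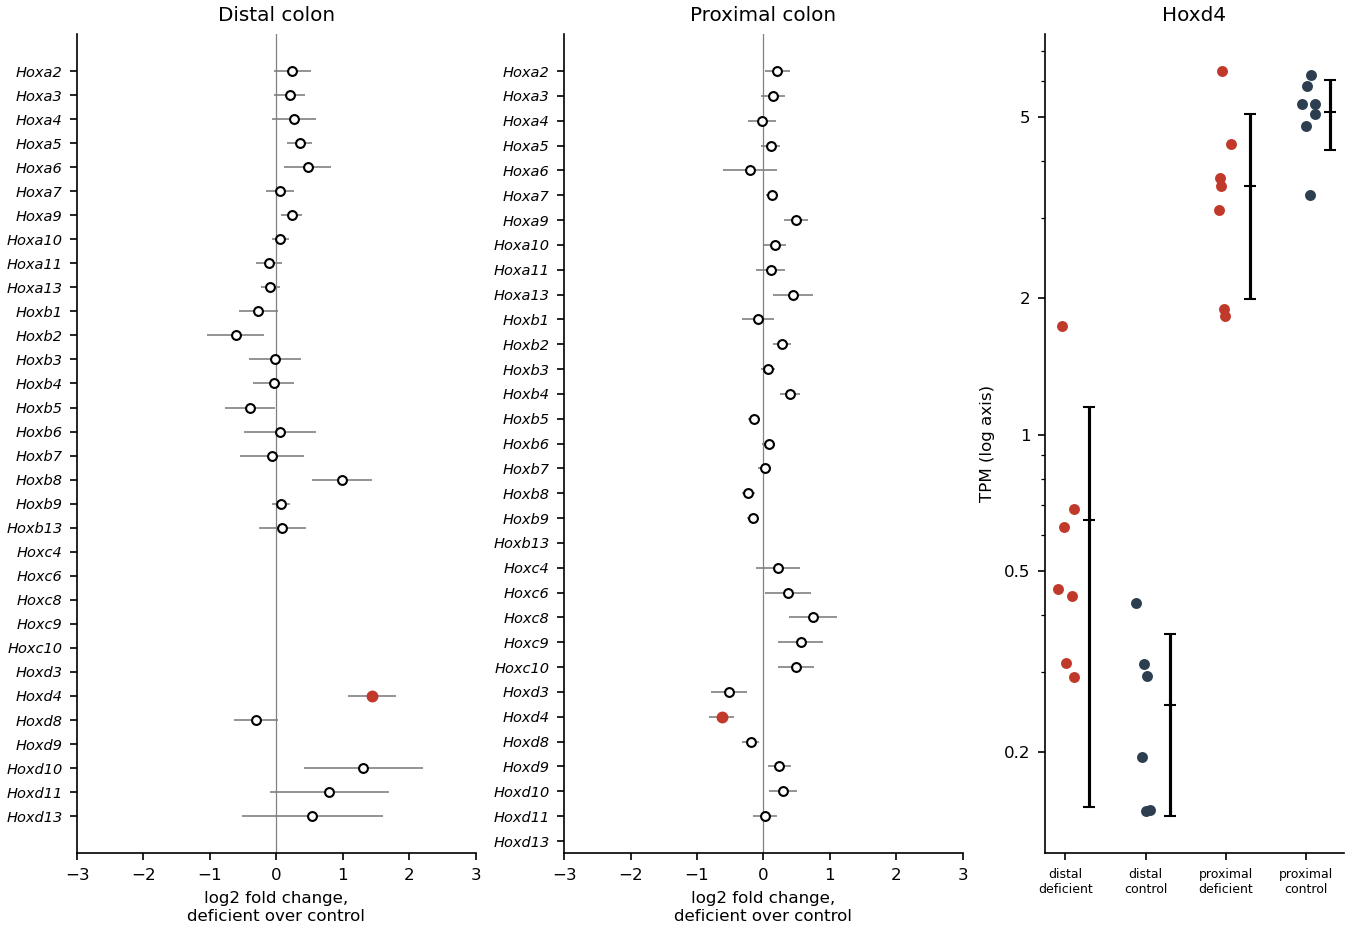
Left and middle, log2 fold change of deficient over control with its standard error for each Hox gene tested in distal (7 against 6 libraries) and proximal colon (7 against 7), filled where adjusted p was under 0.05 and blank where the gene was not tested. Right, Hoxd4 in every library on a log axis with mean and SD, higher in distal deficient (log2 fold change 1.44) and lower in proximal deficient colon (-0.63).

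Genes that act with or upstream of Hox genes were listed beside them. Of 9 TALE homeodomain genes, whose products bind DNA together with Hox proteins, 0 were higher and 6 lower in distal colon of deficient mice, and 0 were higher and 4 lower in controls. Over all genes tested, 22.7% were higher and 22.3% lower in deficient mice, and 21.5% and 22.3% in controls. Meis3 had log2 fold changes of -1.04 and -1.76 and Meis2 of -1.11 and -0.67 in deficient and control mice. Between genotypes in proximal colon Meis3 was lower in deficient mice (6.55 against 10.2 TPM, -0.67, adjusted p = 0.00107). In distal colon 0 of 8 were called, against 2.71% of all genes higher and 3.38% lower.

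Of 18 ParaHox and regional gut factors, 12 were tested in deficient mice, with 4 higher and 6 lower in distal colon, and 11 in controls, with 3 higher and 7 lower. The shares over all genes were 22.7% higher and 22.3% lower in deficient mice, and 21.5% and 22.3% in controls. Pdx1, the ParaHox gene of foregut and pancreas, was at 5.12 TPM in distal and 1 TPM in proximal deficient colon, and at 1.15 and 0.165 TPM in controls (log2 fold changes 2.53 and 3.08). It was higher in deficient mice in either segment, by 2.06 in distal and 2.63 in proximal colon. Isx, an intestinal homeobox gene, was lower in distal deficient colon (8.15 against 22.3 TPM, -1.52, adjusted p = 0.0273). Cdx1 was lower in proximal deficient colon (286 ± 26.1 against 353 ± 19 TPM, -0.32, adjusted p = 0.00491).

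Of 27 chromatin and retinoic acid regulators of Hox clusters, 26 were tested, with 3 higher and 5 lower in distal colon of deficient mice and 3 higher and 8 lower in controls. Set against 22.7% higher and 22.3% lower of all genes in deficient mice, and 21.5% and 22.3% in controls, only the 8 lower in controls exceeded the share over all genes. Aldh1a1, an enzyme that makes retinoic acid, had the smallest p of them, at 15.1 TPM in distal and 515 TPM in proximal deficient colon and at 43 and 355 TPM in controls (log2 fold changes -5.32 and -3.09). The retinoic acid receptor gene Rarg was lower too (-0.67 and -0.89). In proximal colon 4 of 26 were higher and 0 lower in deficient mice, against 5.53% and 6.17% of all genes. These were Aldh1a1 by 0.54, Kdm6a by 0.47, Rarb by 0.96 and Bmi1 by 0.25 on the log2 scale. In distal colon 0 of 26 were called, against 2.71% of all genes higher and 3.38% lower.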

How the data were processed

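Per the labels' protocols, poly(A) RNA from 1 cm colon pieces was made into libraries with the NEBNext Ultra kit. Per the submitters' processing notes, bcl2fastq 2.20.0.422, cutadapt 2.5 and kallisto 0.46.2 were used on GRCm38. The authors deposited estimated counts, TPM and effective lengths per transcript, and gene-level log2 CPM for distal and for proximal colon, with a scaling the sources used here do not state. Counts and TPM were summed per gene with GENCODE M21 (0.92% to 1.3% of counts per library had no match) and counts were rounded. edgeR 4.0.16 (R 4.3.3) was run over all genes that passed filterByExpr, with TMM scaling, the quasi-likelihood test and Benjamini-Hochberg adjustment, called under 0.05. The standard error is the absolute log2 fold change over the square root of F. Comparisons of segments and the test of their difference had the mouse as a block, and those of genotypes had no covariate. The pairing comes from animal numbers in the labels. Deviations of the distal and proximal library of a mouse correlated at 0.057 to 0.36 (median 0.21) in 7 deficient and -0.05 to 0.42 (median 0.29) in 6 control mice. Levels are TPM, which are not TMM-scaled. Correlations over libraries used 100000 permutations, two-sided. Alternatives were DESeq2 1.42.0, limma 3.58.1, other scaling, filters and length offsets, and subsets of mice. The fits were tested on simulated data. The members and gene lists were chosen with earlier results of these data known, and relations with Hoxd13 and with muscle were chosen after seeing the data. Every member is named, with values by library range for the 12 of smallest p between segments in controls, those called between genotypes and the most abundant of each cluster; of other lists up to 4 called genes of smallest p are named. One gene that fits the symbol rule and a gene of another list are not reported here, and antisense and other non-coding genes of the clusters were not analysed here. Each replicate was a mouse, so p-values of the genotype comparisons measure the spread of levels between mice. With the mouse as a block, those of the segment comparisons and their difference measure how the distal to proximal difference varied between mice. The highest correlation between libraries was 0.9859, so none was taken for a duplicate.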

Additional observations from a re-analysis of the deposited data

Results flagged for a closer look

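Hoxd4 differed between genotypes by segment: its log2 fold change of deficient over control was higher in distal than in proximal colon by 1.99 (SE 0.43, adjusted p = 0.0398, edgeR's quasi-likelihood test of the difference). A single library stood far from the rest of its group in 4 of 74 groups with a mean of at least 1 TPM, and chance alone gives about 1 such group in 20. Hoxa6 was at 3.61 TPM in distal control replicate 3, where the next highest of the 6 was at 1.76 TPM. In distal deficient replicate 2, Hoxa7 was at 45.5 TPM and Hoxb9 at 29.5 TPM, where the next highest of the 7 were at 31.3 and 21.5 TPM. Hoxc6 was at 1.77 TPM in proximal deficient replicate 7, where the next highest of the 7 was at 1.18 TPM.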

How the results depend on the processing

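The segment calls held under nearly every alternative. Members called ranged from 25 to 29 in deficient mice (main 27; 25 to 27 when a mouse was left out) and from 24 to 29 in controls (main 25; 24 to 26), and no called member changed direction. Of 378 member values in deficient mice 10 lost their call, in Hoxa7, Hoxc8 and Hoxc9, and of 350 in controls 11, in Hoxa7, Hoxc8 and Hoxd11. Without the replicate block the counts were 27 and 25, and Hoxd11 missed the threshold in controls (-1.38, adjusted p = 0.0518). Between genotypes the single Hoxd4 call was not stable. Its distal value stayed between 0.94 and 1.57, the proximal one between -0.77 and -0.54 and the difference between 1.53 and 2.24, while the members called were 0 to 1 when a mouse was left out. They were also 0 in all 3 comparisons with the transcript-length offset and in mice labelled male, 0 in distal colon and for the difference in control mice without Cre, in mice of 9 to 13 months and with limma on log2(TPM + 0.1), 0 in distal colon with the deposited log2 CPM, where Hoxd4 has no value, and 0 in proximal colon with no filter. In proximal colon 1 member was called with limma on log2(TPM + 0.1) and on the deposited log2 CPM, but this was Hoxa9, and Hoxd4 missed the threshold (adjusted p = 0.151 and 0.0708). With the replicate number as a block, which pairs no animals here (same-numbered libraries correlated at a median of 0.019 in distal and 0.014 in proximal colon), the call was lost in distal colon (0 members, adjusted p = 0.163) and kept in proximal colon (adjusted p = 0.0466). The cause of these losses was not tested. Low counts limit cluster C, Hoxd1 and Hoxd12, proximal Hoxb13 and Hoxd13, and distal Hoxd4. The relations of Hoxd13 with Hoxd11, Hoxd10, Hoxb13 and Cdx2 kept their sign under every alternative tried. On the CPM scale they were 0.95, 0.92, 0.81 and -0.91, in that order.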
